A study of Oreochromis niloticus with 3 samples.

Results

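The aminoacyl-tRNA synthetase genes were followed in the hepatopancreas of Nile tilapia acclimated to 3 salinities. Members were the loci of the deposited count table whose symbol is a single letter followed by ars, with or without a final 1 or 2, together with farsa, farsb and eprs. They numbered 36 of the 29605 loci in the table. Of these, 8 carried a symbol in the table and 28 a locus number that the RefSeq gene table for Nile tilapia resolved to a symbol. The count table held 27855 locus numbers, of which 13937 were given a symbol, so a synthetase among the remaining loci could not be found by this rule. By general knowledge of the enzymes, 18 members were counted as cytosolic and 16 as mitochondrial. A further 2 (gars and kars1) are known in vertebrates to serve both compartments from 1 gene. The histidyl gene hars was counted as cytosolic. No mitochondrial counterpart of hars was among the members, and whether hars serves both compartments in tilapia was not examined. The study compared healthy juvenile fish held in freshwater (0 psu) with fish brought to 8 or 16 psu in steps of 4 psu per day, with 3 tanks per salinity and 5 weeks of rearing by the deposited labels. The paper's methods give a longer rearing time. Each salinity is represented by 1 library, made from hepatopancreas RNA of 8 fish pooled, so no difference has a replicate check. No strain is given, and the fish carry no stated genetic change.

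An aminoacyl-tRNA synthetase joins an amino acid to its cognate tRNA and so supplies the ribosome. Class I and class II enzymes have unrelated catalytic folds. The mitochondrial enzymes are encoded in the nucleus, imported, and charge the tRNAs that translate the respiratory chain subunits of the mitochondrial genome. In animals several cytosolic enzymes are held with the scaffold proteins AIMP1, AIMP2 and EEF1E1 in the multi-synthetase complex. In mammals many cytosolic synthetase genes are transcribed more under the factor ATF4 when amino acids are short. The liver, which secretes plasma proteins, and the exocrine pancreas, which secretes digestive enzymes, are tissues of high protein synthesis.

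The libraries of 0, 8 and 16 psu fish held 14627514, 13628578 and 16112951 counts. With TMM scaling of the library sizes the median log2 fold change of the 16573 genes with at least 10 counts in 1 library was between 0.00 and 0.01 in the 3 comparisons. Scaling by total counts moved it to 0.12 at 8 vs 0 psu and to 0.14 at 16 vs 0 psu, and the direction of small changes below is relative to the TMM scale. Of the marker lists, 6 of 16 hepatocyte symbols had a locus, with a summed level of 44101 to 53829 CPM (counts scaled to library size). For 5 of 17 exocrine pancreas symbols the sum was 9616, 13038 and 12935 CPM in the 0, 8 and 16 psu libraries. The 7 matched macrophage loci of 13 symbols summed to 237 to 286 CPM, although the labels describe the cells as histiocytes. The 9 matched skeletal muscle loci of 17 symbols summed to 16.3, 5.01 and 105 CPM at 0, 8 and 16 psu. The 4 matched enterocyte loci of 8 symbols summed to 3.43, 0.21 and 0.06 CPM, and the 2 matched erythrocyte loci of 8 symbols to 152 to 182 CPM. No matched marker was at 0 in all 3 libraries. Of the enterocyte genes, fabp2 and slc15a1b each had 23 counts at 0 psu and 0 at 8 and 16 psu. The others had few counts in any library, with 1, 0 and 0 for slc15a1a and 0, 3 and 1 for fabp6 at 0, 8 and 16 psu. In a library made from whole tissue a smaller number of cells of a type and less RNA per cell cannot be told apart. The part of these cell types in the results below was not tested.

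The reads of the 36 genes together took 0.0705%, 0.0724% and 0.0739% of the 0, 8 and 16 psu libraries. On the TMM scale they summed to 752, 706 and 711 CPM at 0, 8 and 16 psu. The cytosolic genes gave 7911, 7441 and 8940 counts and the mitochondrial genes 1550, 1387 and 1798 counts in the same order. The genes kars1, rars1, farsb and eprs were among the 5 with the most counts. Transcript lengths were not used here, so counts and CPM are compared between libraries and not between genes. Of the 36 genes, 33 reached 10 counts in at least 1 library and were compared: all 18 cytosolic genes, 14 of 16 mitochondrial genes, and kars1.

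**Figure D1:**
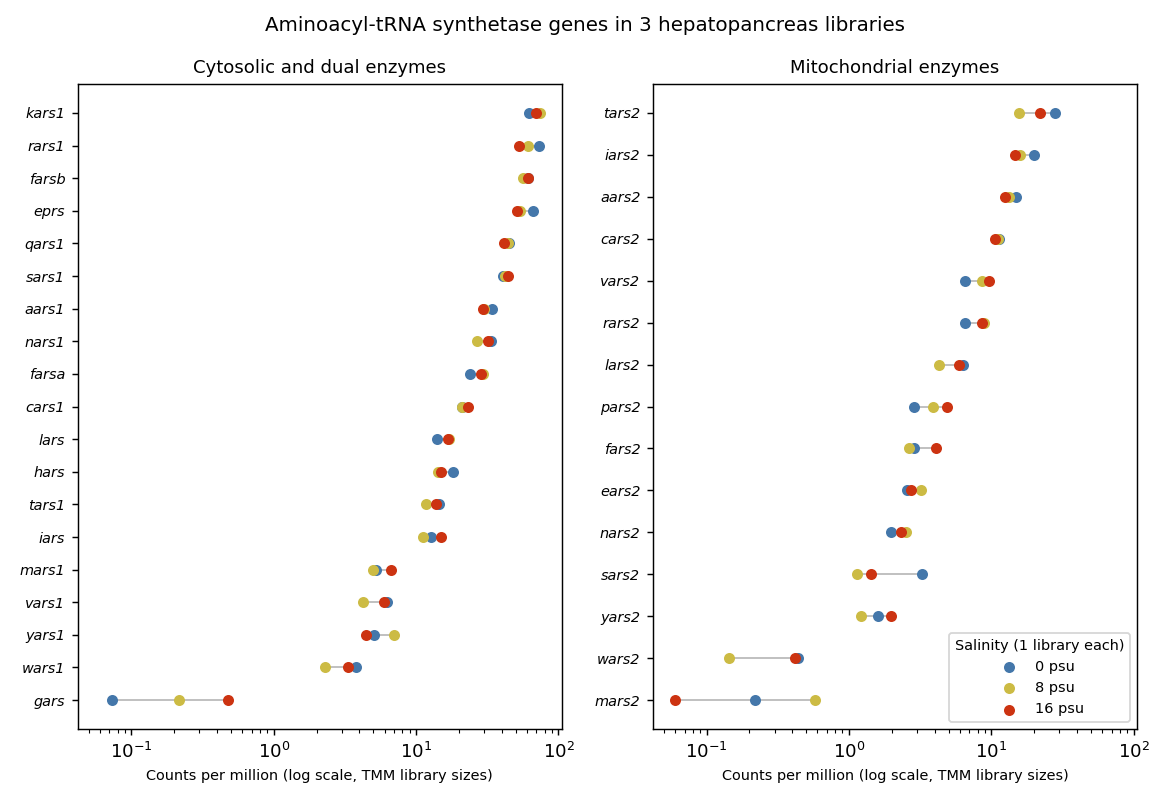
Level of 34 genes in CPM (log axis, TMM library sizes) in the 0, 8 and 16 psu libraries, with cytosolic and dual enzymes on the left and mitochondrial enzymes on the right; each point is 1 library, and genes are ordered by their mean count. The 3 points lie close together for most cytosolic genes and furthest apart for gars, wars2 and mars2, which have 8 counts or fewer in every library, and for sars2.

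A gene was called when its fold change passed a limit of 2 or of 1.5 in either direction and a two-sided exact binomial test on its reads in the 2 libraries gave an adjusted p under 0.05 over all genes. That test compares libraries and not salinities. At the 2-fold limit 1 of 33 synthetase genes was called at 8 vs 0 psu (sars2, lower), against 9.84% of all genes. None was called at 16 vs 0 psu, against 11.1% of all genes, and none at 16 vs 8 psu, against 5.68%. At the 1.5-fold limit 5 different genes were called in at least 1 comparison, of which 4 were mitochondrial, sars2, tars2 and pars2 among them, and 1 cytosolic (yars1). The share of all genes called in at least 1 comparison was not counted, and the shares for each comparison follow. At 8 vs 0 psu 1 gene of 33 was called higher, against 10.3% of all genes, and tars2 and sars2 were the 2 called lower, against 11.8%. At 16 vs 0 psu pars2 was called higher and sars2 lower, against 12.2% and 12.7% of all genes. With scaling by total counts 4 genes, pars2 among them, were called higher in that comparison. At 16 vs 8 psu no synthetase gene was called higher, against 6.99%, and yars1 was called lower, against 6.05%. When pools were assumed to vary with a biological coefficient of 0.2, an edgeR exact test called none of the 33 genes in any comparison. The share of all genes called by that test was not counted, so the members cannot be set beside all genes there.

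The 95% counting interval of the fold change excluded no change, without any fold limit, for 15 of 33 genes at 8 vs 0 psu (45.5%, against 43.4% of all genes), for 14 at 16 vs 0 psu (42.4%, against 45.6%) and for 7 at 16 vs 8 psu (21.2%, against 34.9%). The intervals come from exact Clopper-Pearson bounds on each gene's split of reads between the libraries and cover counting error only. Since deeper genes have narrower intervals, the 21 synthetase genes with a mean of at least 100 counts were also set beside the 7342 genes of that depth. Their intervals excluded no change for 42.9% at 8 vs 0 psu, against 59% of the deeper genes, for 52.4% at 16 vs 0 psu, against 61.5%, and for 19% at 16 vs 8 psu, against 49.5%. Of the 21, 1 was called at the 1.5-fold limit at 8 vs 0 psu (tars2), against 21.1% of the deeper genes. None was called at 16 vs 0 psu, against 24.1%, and none at 16 vs 8 psu, against 10.5%. Their median absolute log2 fold change was 0.26, 0.23 and 0.10 at 8 vs 0, 16 vs 0 and 16 vs 8 psu, against 0.30, 0.31 and 0.21 for the deeper genes. Members of 1 gene family measured in the same 3 libraries are not replicates, and these shares are a description.

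**Figure D2:**
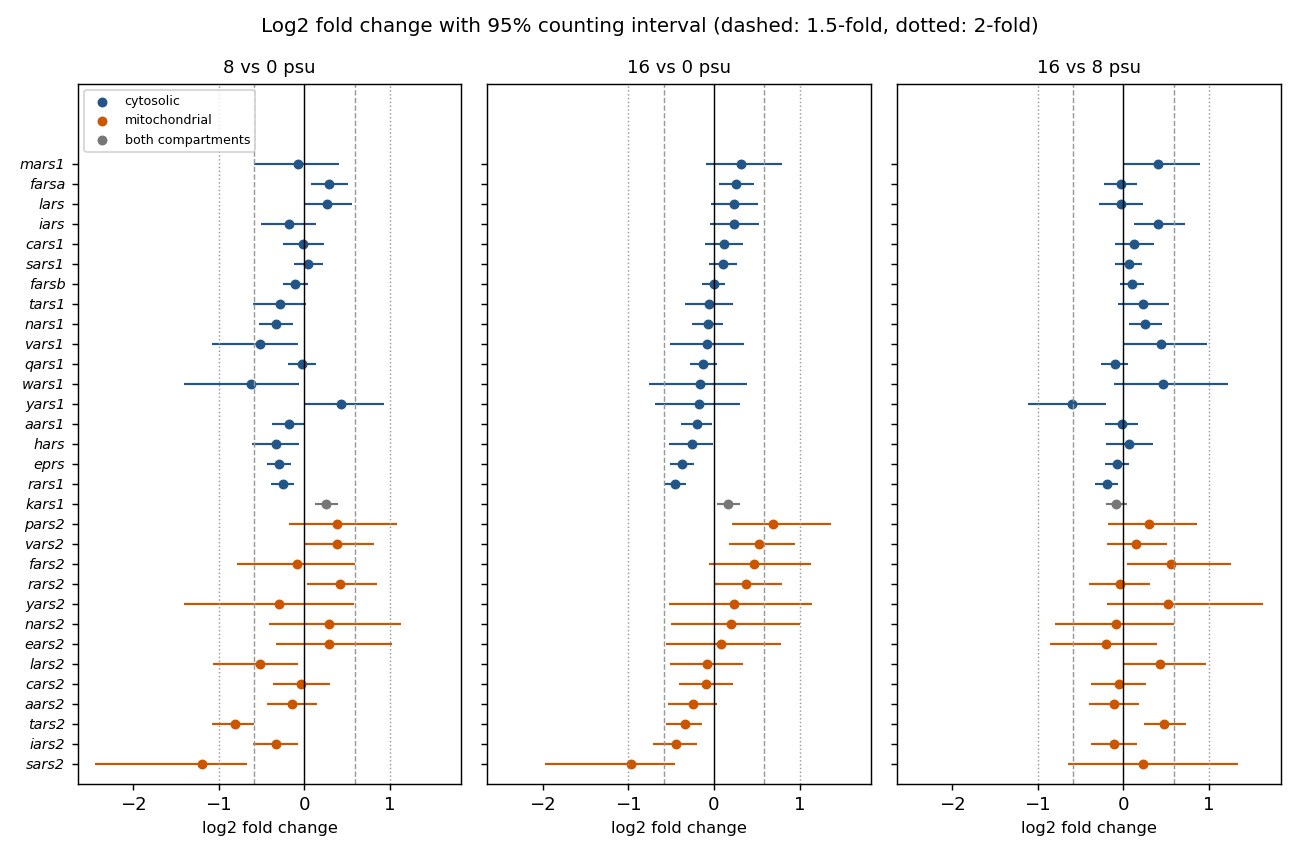
Log2 fold change of 31 compared genes (points, on log2 of CPM plus 0.5) with the 95% counting interval (lines, without the added 0.5) at 8 vs 0, 16 vs 0 and 16 vs 8 psu; cytosolic genes are above kars1 and mitochondrial genes below it. Cytosolic points lie between -0.62 and 0.46, and sars2 at the bottom has the lowest points at 8 vs 0 psu (-1.20) and at 16 vs 0 psu (-0.97).

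The cytosolic enzymes had median absolute log2 fold changes of 0.26, 0.17 and 0.115 at 8 vs 0, 16 vs 0 and 16 vs 8 psu. All genes, not matched for depth, had 0.36, 0.37 and 0.27. Counting intervals excluded no change for 44.4%, 33.3% and 27.8% of the cytosolic genes, against 43.4%, 45.6% and 34.9% of all genes. These shares are not matched for depth either. Of the 18 cytosolic genes, 14 had a mean of at least 100 counts. Of all genes of that depth, intervals excluded no change for 59%, 61.5% and 49.5%. The median signed log2 fold change of the cytosolic genes was -0.14 at 8 vs 0 psu, with 4 of 18 genes higher and 14 lower. It was -0.08 at 16 vs 0 psu, with 6 higher and 12 lower. All genes had medians of 0.00 and 0.01 in these comparisons. Under scaling by total counts the split was 9 higher and 9 lower at 8 vs 0 psu, and 11 higher and 6 lower at 16 vs 0 psu with a median of 0.07. That scaling moves all genes alike, and beside the cytosolic medians of -0.01 and 0.07 under it the medians of all genes were 0.12 and 0.14. Both comparisons use the same 0 psu library. On the TMM scale the level at 0 psu was the highest of the 3 for 11 of the 18 genes. That count depends on the scaling. Under total counts some of the 11, tars1 and nars1 among them, were higher at 16 than at 0 psu. The share for all genes was not counted.

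Arginyl-tRNA synthetase was the cytosolic enzyme whose counting interval excluded no change in all 3 comparisons. The counts of rars1 (LOC100711953) were 997, 850 and 890 at 0, 8 and 16 psu, which is 72.7, 60.9 and 53.1 CPM. Its level was lower at each higher salinity. The log2 fold change was -0.26 at 8 vs 0 psu (95% counting interval -0.39 to -0.12), -0.45 at 16 vs 0 psu (-0.59 to -0.32) and -0.20 at 16 vs 8 psu (-0.34 to -0.06). None of these passed the 1.5-fold limit. The bifunctional enzyme for glutamate and proline, eprs, had 912, 754 and 861 counts, or 66.5, 54.0 and 51.3 CPM, at 0, 8 and 16 psu. Both saline libraries were below the freshwater library, with log2 fold changes of -0.30 at 8 vs 0 psu (-0.44 to -0.16) and -0.37 at 16 vs 0 psu (-0.51 to -0.24). The signs of rars1 and eprs at 8 vs 0 psu and 16 vs 0 psu were the same under the 3 other scalings.

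The beta subunit of phenylalanyl-tRNA synthetase stayed near its freshwater level. The counts of farsb were 834, 790 and 1017 and its levels 60.8, 56.6 and 60.7 CPM. Its interval included no change in all 3 comparisons, with bounds from -0.25 to 0.24. The alpha subunit of the same enzyme, farsa (LOC100704950), had 329, 410 and 482 counts, or 23.99, 29.4 and 28.7 CPM, and both saline libraries were above the freshwater library.

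The lysyl-tRNA synthetase gene kars1 (LOC100689916), which in mammals yields the cytosolic and the mitochondrial enzyme by alternative splicing, had 850, 1033 and 1169 counts at 0, 8 and 16 psu. These correspond to 62.0, 74.0 and 69.7 CPM, with both saline libraries above freshwater. The log2 fold change was 0.25 at 8 vs 0 psu (0.12 to 0.39) and 0.17 at 16 vs 0 psu (0.04 to 0.30). The 16 and 8 psu libraries differed by -0.09 (-0.21 to 0.04), an interval that includes no change. Among the 8 catalytic genes of the multi-synthetase complex, eprs, kars1 and rars1 among them, the median log2 fold change was -0.06 at 8 vs 0 psu and 0.02 at 16 vs 0 psu. For the 11 cytosolic genes outside the complex it was -0.18 and -0.07. None of the 8 catalytic genes of the complex was called in any comparison. At the 1.5-fold limit 10.3% of all genes were called higher and 11.8% lower at 8 vs 0 psu. The shares were 12.2% and 12.7% at 16 vs 0 psu, and 6.99% and 6.05% at 16 vs 8 psu. At 8 vs 0 psu rars1 and eprs were at the low end of the complex, and kars1 and the leucyl enzyme lars (193, 237 and 279 counts) at the high end. By structural class, with eprs left out since it holds an enzyme of each, the 9 cytosolic genes of class I and the 8 of class II had medians of -0.08 and -0.14 at 8 vs 0 psu, and of -0.08 and -0.06 at 16 vs 0 psu.

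Tyrosyl-tRNA synthetase was the called cytosolic gene. The counts of yars1 (LOC100702408) were 69, 97 and 74, or 5.03, 6.95 and 4.41 CPM, at 0, 8 and 16 psu. The 8 psu library was the highest, while the 0 and 16 psu libraries were close to each other. The log2 fold change was -0.60 at 16 vs 8 psu (-1.11 to -0.20), 0.43 at 8 vs 0 psu (0.01 to 0.93) and -0.17 at 16 vs 0 psu (-0.68 to 0.31). The call at 16 vs 8 psu was lost with scaling by total counts, where the value was -0.58. The 3 least deep cytosolic genes besides yars1 were wars1 (52, 32 and 56 counts), mars1 (72, 69 and 112 counts) and vars1 (86, 59 and 99 counts), and none of these was called. In wars1, mars1 and vars1 the 8 psu library was the lowest.

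The mitochondrial enzymes spread further than the cytosolic ones in both comparisons with freshwater, at lower counts. Their median log2 fold change was -0.06 at 8 vs 0 psu, with 6 of 14 genes higher, and 0.14 at 16 vs 0 psu, with 8 of 14 higher. With total counts 8 of 14 and 10 of 14 were higher, while the 6 mitochondrial genes with a mean of at least 100 counts had a median of -0.17 at 16 vs 0 psu, with 2 higher. The values ran from -0.97 to 0.69 at 16 vs 0 psu, against -0.45 to 0.32 for the cytosolic genes. At 16 vs 8 psu the mitochondrial range was the narrower, with -0.20 to 0.55 against -0.60 to 0.46. The median half-width of the counting interval at 8 vs 0 psu was 0.51 for the mitochondrial genes and 0.23 for the cytosolic genes. At a mean of at least 100 counts the median absolute log2 fold change at 8 vs 0 psu was 0.35 for 6 mitochondrial genes and 0.22 for 14 cytosolic genes, and at 16 vs 0 psu it was 0.35 and 0.18. At 16 vs 8 psu it was 0.11 and 0.10. All genes of that depth had 0.30, 0.31 and 0.21 at 8 vs 0, 16 vs 0 and 16 vs 8 psu. The 8 mitochondrial genes with a mean of 10 to 100 counts had 0.34, 0.34 and 0.27 in the same order. All genes with such a mean had 0.40, 0.40 and 0.32. With so few genes per group and 1 library per salinity the difference between mitochondrial and cytosolic genes was not tested.

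**Figure D3:**
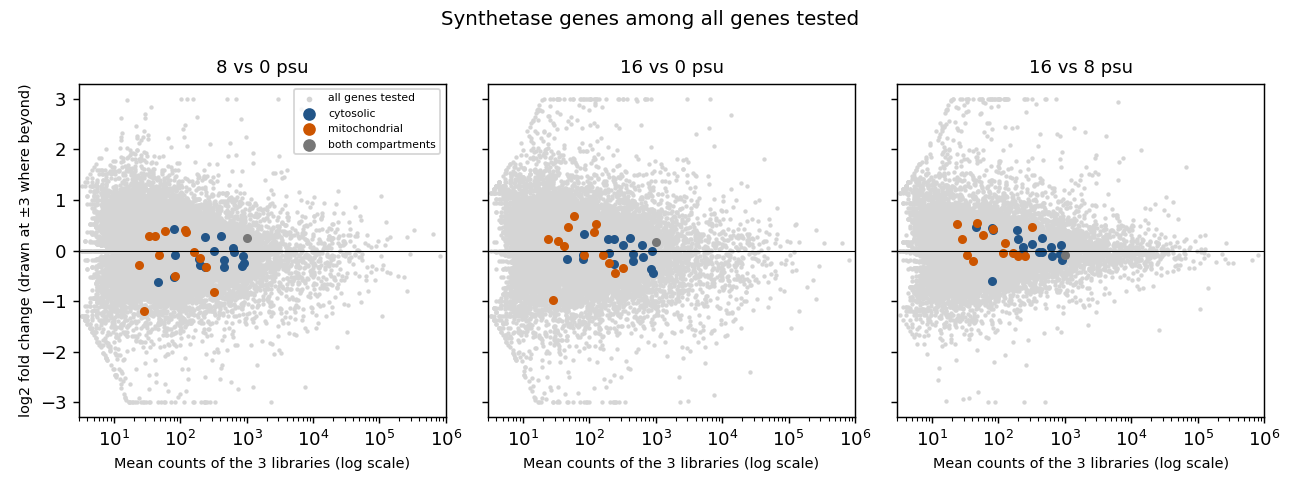
Log2 fold change (vertical axis, drawn at the edge where beyond 3) against the mean count of the 3 libraries (log axis) for all genes tested (grey) and 31 synthetase genes (blue cytosolic, orange mitochondrial, dark grey kars1), in the 3 comparisons. The cytosolic genes lie near 0 at higher counts, and most mitochondrial genes lie further left, where the grey cloud is wider.

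Seryl-tRNA synthetase of mitochondria was the gene with the lowest fold change. The counts of sars2 (LOC100692360) were 45, 16 and 24, or 3.28, 1.15 and 1.43 CPM, at 0, 8 and 16 psu. Both saline libraries were below the freshwater library and close to each other. The log2 fold change was -1.20 at 8 vs 0 psu and -0.97 at 16 vs 0 psu, or -1.52 (-2.44 to -0.67) and -1.20 (-1.98 to -0.45) without the added 0.5. It was 0.23 at 16 vs 8 psu (-0.65 to 1.33). At counts this low both 2-fold calls depend on the value added. At 16 vs 0 psu the call was made with 0.1 added to CPM and not with 0.5. At 8 vs 0 psu the 2-fold call was lost with 2 added, where the value was -0.75. The cytosolic counterpart sars1 (LOC100693173) had 559, 587 and 736 counts, or 40.8, 42.0 and 43.9 CPM, and its interval included no change in every comparison.

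Threonyl-tRNA synthetase of mitochondria was lowest in the 8 psu library, and the 16 psu library was also below freshwater. The counts of tars2 (LOC100709798) were 381, 218 and 367, or 27.8, 15.6 and 21.9 CPM, at 0, 8 and 16 psu. The log2 fold change was -0.81 at 8 vs 0 psu (-1.08 to -0.59), -0.34 at 16 vs 0 psu (-0.56 to -0.13) and 0.47 at 16 vs 8 psu (0.24 to 0.74), and all 3 intervals excluded no change. Of the 5 called genes tars2 had the most reads. Its cytosolic counterpart tars1 (LOC100694096) had 198, 165 and 233 counts, or 14.4, 11.8 and 13.9 CPM, also lowest at 8 psu, with intervals that included no change. The further threonyl-tRNA synthetase gene tars3, which lies outside the rule, had 135, 104 and 142 counts.

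Prolyl-tRNA synthetase of mitochondria was higher in the saline libraries. The counts of pars2 (LOC100692163) were 39, 54 and 82, or 2.84, 3.87 and 4.89 CPM, higher at each higher salinity. Its log2 fold change was 0.39 at 8 vs 0 psu (-0.18 to 1.08), 0.69 at 16 vs 0 psu (0.21 to 1.37) and 0.30 at 16 vs 8 psu (-0.17 to 0.86), of which the second was called. The call was lost with 2 added to CPM.

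Of the other mitochondrial genes, 3 were chosen for description after their values were seen. The valyl enzyme vars2 (LOC100691583), which the count table types as a miscellaneous RNA, had 90, 121 and 162 counts, or 6.56, 8.66 and 9.66 CPM, at 0, 8 and 16 psu. The arginyl enzyme rars2 (LOC100711113) had 89, 123 and 143 counts, or 6.49, 8.81 and 8.53 CPM. The isoleucyl enzyme iars2 (LOC100708710) had 275, 222 and 246 counts, or 20.1, 15.9 and 14.7 CPM. At 16 vs 0 psu the intervals of vars2 (0.18 to 0.95), rars2 (0.00 to 0.79, the lower bound just above no change) and iars2 (-0.70 to -0.20) excluded no change without passing the call. A further 7 compared genes (aars2, cars2, ears2, fars2, lars2, nars2 and yars2) had between 17 and 208 counts in a library, and none was called. The 14 compared mitochondrial genes were at their highest level at 0 psu in 6 cases, at 8 psu in 4 and at 16 psu in 4, so the group had no common order of the 3 libraries.

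The 3 genes below the count minimum were gars, with 1, 3 and 8 counts at 0, 8 and 16 psu, mars2 (LOC100710663), with 3, 8 and 1, and wars2 (LOC100694638), with 6, 2 and 7. The limit that a count of 0 allows is 3 counts, or 0.18 to 0.22 CPM, and no fold change is given for these genes. No other locus was found for glycine. A glycyl-tRNA synthetase locus without a symbol in the gene table would not have been found here.

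A ratio of the counts of 2 genes within a library does not depend on how libraries are scaled. Pairs were formed where a cytosolic gene serves a single amino acid, with farsa and farsb summed for phenylalanine. For 12 amino acids the mitochondrial and the cytosolic enzyme of such a pair were both above the count minimum. The mitochondrial genes ears2 and pars2 were not paired, since their cytosolic counterpart eprs serves both glutamate and proline. In both saline libraries ears2 and pars2 were higher and eprs lower than at 0 psu. Their ratios to eprs were thus also higher, but are left out of the counts and medians below. The log2 change of the mitochondrial to cytosolic ratio had a median of -0.07 at 8 vs 0 psu (5 higher, 7 lower) and of 0.13 at 16 vs 0 psu (6 higher, 6 lower). At 8 vs 0 psu the 95% interval of the odds ratio excluded no change for 3 pairs that were higher, arginine and valine among them, and 3 that were lower (leucine, serine and threonine). At 16 vs 0 psu the same was found for 3 pairs that were higher, arginine and valine among them, and for isoleucine and serine, lower. The 2 comparisons share the 0 psu library. At 16 vs 8 psu tyrosine was higher and isoleucine lower. The share for pairs of other genes was not computed, so these counts are a description. For single genes the counting interval excluded no change for 43.4%, 45.6% and 34.9% of all genes at 8 vs 0, 16 vs 0 and 16 vs 8 psu. Those shares are not matched for depth, and the interval of a ratio carries the counting error of 2 genes. They are therefore not a background for the pairs.

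The ratio of rars2 to rars1 was 0.0893, 0.145 and 0.161 at 0, 8 and 16 psu, a log2 change of 0.70 at 8 vs 0 psu (0.27 to 1.13) and of 0.85 at 16 vs 0 psu (0.43 to 1.27). Here the mitochondrial gene was higher and the cytosolic gene lower in both saline libraries. The ratio of sars2 to sars1 was 0.0805, 0.0273 and 0.0326, with log2 changes of -1.56 (-2.50 to -0.69) and -1.30 (-2.10 to -0.54). The ratio of vars2 to vars1 was 1.05, 2.05 and 1.64, with changes of 0.97 (0.32 to 1.62) and 0.65 (0.06 to 1.23). The ratio of tars2 to tars1 was 1.92, 1.32 and 1.58, with a change of -0.54 at 8 vs 0 psu (-0.94 to -0.15) and an interval that included no change at 16 vs 0 psu (-0.64 to 0.06). The pairs whose intervals excluded no change lay on both sides of 0 in each comparison.

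**Figure D4:**
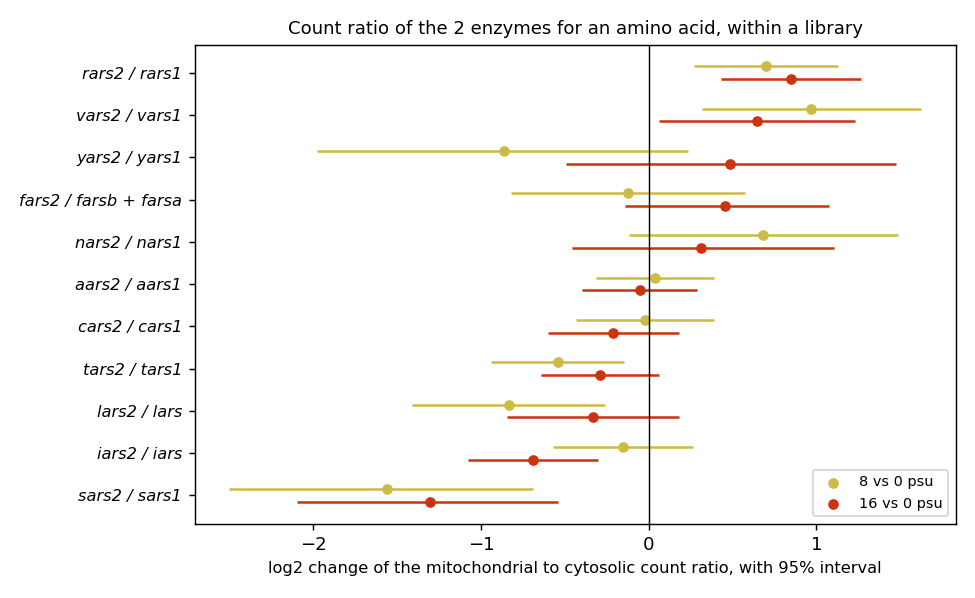
Log2 change of the mitochondrial to cytosolic count ratio within a library, for 11 amino acids, at 8 vs 0 psu (yellow) and 16 vs 0 psu (red), with 95% intervals of the odds ratio. Arginine and valine lie to the right of 0 and serine to the left in both comparisons.

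Summed over all genes, the mitochondrial enzymes gave 16.4% of the cytosolic plus mitochondrial synthetase reads in the 0 psu library (exact 95% interval 15.6% to 17.1%), 15.7% at 8 psu (14.96% to 16.5%) and 16.7% at 16 psu (16.0% to 17.5%). The 3 intervals overlap. A single gene, tars2, weighs on this share: without it the values were 12.9% (12.2% to 13.6%), 13.6% (12.9% to 14.3%) and 13.8% (13.1% to 14.5%). The order of 0 and 8 psu was then the other way round, and the intervals again overlap.

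Other genes of tRNA charging were read from lists. Of the non-catalytic parts of the multi-synthetase complex, aimp2 had 1093, 1300 and 1485 counts and aimp1a 288, 377 and 352 counts at 0, 8 and 16 psu, and neither was called. aimp1b had no count in any library. eef1e1 had 146, 82 and 129 counts and was called lower at 8 vs 0 psu at the 1.5-fold limit, with a log2 fold change of -0.81. Of 16 other tRNA charging loci, none was called higher and 4 were called lower at 8 vs 0 psu at the 1.5-fold limit, beside 10.3% and 11.8% of all genes. At 16 vs 0 psu none was called higher and 3 were called lower, beside 12.2% and 12.7%. The list's median log2 fold change was -0.25 and -0.29 in these comparisons, which share the 0 psu library. Among those called lower at 8 vs 0 psu were qrsl1, a subunit of the mitochondrial amidotransferase that makes glutaminyl-tRNA (139, 78 and 114 counts), the selenophosphate synthetase gene sephs1 (106, 60 and 82 counts) and ptrhd1 (135, 58 and 88 counts). Of these 3, sephs1 and ptrhd1 were also called lower at 16 vs 0 psu. The intervals of all 3 and of eef1e1 included no change at 16 vs 8 psu. The other amidotransferase subunits gatb (57, 71 and 71 counts) and gatc (135, 111 and 132 counts) were not called.

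Elongation factor genes were read in the same way. A locus was matched for 8 of 19 cytosolic symbols and for 4 of 5 mitochondrial symbols. No eef1a locus was among the 8. At the 1.5-fold limit none of the 8 cytosolic loci was called at 8 vs 0 psu. Of all genes 10.3% were called higher and 11.8% lower there. At 16 vs 0 psu eefsec was called higher and eef1db lower, beside 12.2% and 12.7% of all genes. The 4 mitochondrial elongation factor loci (gfm1, gfm2, guf1 and tufm) had a median log2 fold change of -0.21 at 8 vs 0 psu and -0.10 at 16 vs 0 psu. None of the 4 was called in these comparisons, beside the same shares of all genes. With 8 and 4 loci these counts are a description.

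Genes known in mammals as targets or parts of the integrated stress response were read beside the synthetase genes. Of 31 tested loci of the list, 3 were called higher and 11 lower at 8 vs 0 psu at the 1.5-fold limit, beside 10.3% and 11.8% of all genes. At 16 vs 0 psu 4 were called higher and 5 lower, beside 12.2% and 12.7%. At 16 vs 8 psu 4 were called higher and 0 lower, beside 6.99% and 6.05%. The list's median log2 fold change was -0.46 at 8 vs 0 psu, -0.19 at 16 vs 0 psu and 0.11 at 16 vs 8 psu. At the 2-fold limit 1 locus was higher (gdf15) and 4 lower (ddit4, got1, psph and slc38a2) at 8 vs 0 psu. At 16 vs 0 psu 2 were higher (ddit4 and gdf15) and 1 lower (jdp2a). Beside these, 9.84% and 11.1% of all genes were called at that limit in either direction. The genes described next are only a part of the list. Asparagine synthetase, asns, had 42, 85 and 98 counts at 0, 8 and 16 psu and was called higher in both comparisons with freshwater. The ATF4 genes atf4a (1279, 1302 and 1708 counts) and atf4b (1005, 723 and 1003 counts) were not called in any comparison. trib3 (51, 24 and 40 counts) and chac1 (1742, 1087 and 1219 counts) were called lower at 8 vs 0 psu, and chac1 also at 16 vs 0 psu. The kinase that senses uncharged tRNA, GCN2, is encoded by eif2ak4, which had 340, 290 and 392 counts and no call. Of the 6 loci in the list of eIF2 alpha kinases and their partners, eif2ak2 (20, 53 and 53 counts) was called higher and impact (74, 45 and 44 counts) lower in both comparisons with freshwater. In the same comparisons the cytosolic synthetase genes kept within the 1.5-fold limit, except for wars1, described after its value was seen, which passed the fold limit at 8 vs 0 psu (-0.62, interval -1.41 to -0.06) without passing the test on reads.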

How the data were processed

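Poly(A) RNA of 3 pooled hepatopancreas samples, 1 per salinity, was sequenced on Ion Proton per the labels. The authors evaluated the reads with FAST-QC, mapped them with MapSplice to Orenil1.1 and deposited raw counts per gene without normalization. The submitters' processing notes name HTSeq. Whether counting used strand, and what was done with multiply mapped reads, is not given in the sources used here, so reads of close paralogs or overlapping genes could have been split. Symbols came from the RefSeq gene table of another assembly (O_niloticus_UMD_NMBU), so no coordinate is given.

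Genes with at least 10 counts in 1 library were kept, and library sizes were scaled by TMM (edgeR 4.0.16, R 4.3.3). Log2 fold changes are between values of log2(CPM + 0.5), a scale on which changes of genes with few counts are understated. EB-Seq was not available, and 1 library per salinity leaves no residual degrees of freedom. The reads were tested by a two-sided exact binomial test with Benjamini-Hochberg adjustment over all kept genes. This test, the 95% intervals and the limits on counts of 0 cover counting error only, since reads without molecular identifiers are not independent molecules, and they hold no variation between fish, tanks or preparations. Values were computed in Python 3.11.15 with scipy 1.17.1, and the calling procedure was run on simulated data. The simulation drew Poisson reads without variation between pools and changed deeper genes by more than 2-fold. It therefore does not bear on pool variation, on changes of genes with few counts or on calls at the 1.5-fold limit. By the naming rule any member could be named, with fold changes and intervals for members called at the 1.5-fold limit and for the 5 with the most counts. Some of these items are counted in the totals and medians but are not reported here by name. The members and lists were chosen with earlier results of these data known. Alternatives were DESeq2 1.42.0 size factors, upper-quartile factors, total counts, other count minimums, added values and tests.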

Additional observations from a re-analysis of the deposited data

How the results depend on the processing

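Of 144 values recomputed under other settings for 15 results, 119 stayed within their limit and 25 moved. All 25 were counts of called genes, each of 2 or fewer genes as reported. The medians of the cytosolic and the mitochondrial genes moved by less than the median half-width of their counting intervals. That limit is a width for single genes, so a median could change sign and still stay within it. The sign changed for the mitochondrial median in each comparison and for the cytosolic median at 16 vs 0 psu. The cytosolic median ranged from -0.14 to -0.02 at 8 vs 0 psu, from -0.08 to 0.07 at 16 vs 0 psu and from 0.02 to 0.09 at 16 vs 8 psu, and the mitochondrial median from -0.14 to 0.06, from -0.17 to 0.27 and from -0.05 to 0.07. Total counts raised the genes called higher at 1.5-fold at 16 vs 0 psu to 4 and left 0 called lower at 16 vs 8 psu. A minimum of 100 counts left 0 genes at 2-fold at 8 vs 0 psu, and at 1.5-fold 0 higher and 1 lower at 8 vs 0 psu, 0 higher and 0 lower at 16 vs 0 psu and 0 lower at 16 vs 8 psu, since the other called genes are below it. With 0.1 added to CPM, 1 gene was called at 2-fold at 16 vs 0 psu. With 2 added, 0 genes were called at 2-fold at 8 vs 0 psu, 0 higher at 1.5-fold at 8 vs 0 and at 16 vs 0 psu, and 0 lower at 16 vs 8 psu. The edgeR exact test with an assumed coefficient of 0.2 or 0.4 left 0 calls in each of the 9 counts. Shares of all genes called were not counted under these other settings. DESeq2 size factors, upper-quartile factors, no count minimum and the fold limit alone gave counts within 1.5 times of those reported. The intervals without a fold limit and the mitochondrial share without tars2 were added after seeing the data. No paired analysis was possible because each salinity has 1 library.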
